A study of Mus musculus with 4 samples.

Results

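Mitosis is the phase in which a cell with duplicated DNA condenses its chromosomes, fixes them to the spindle, separates them and divides. The genes considered here are 50 that encode proteins of this phase, among them mitotic cyclins, kinases, kinetochore proteins, kinesin motors, condensins and cytokinesis factors. They were a fixed list of gene symbols, and all 50 were found among the 12067 genes that were counted. They are described across the 4 libraries of a transplant experiment with myeloid progenitor cells of mice.

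The libraries were Quant-seq, a 3′ mRNA method, so that a transcript is counted near its 3′ end. Both groups derived from tamoxifen-treated donors that carried a floxed *Bcor* allele on their X chromosome. *Bcor* encodes a corepressor that works within a Polycomb repressive complex. The BcorΔE9-10 donors had the genotype scl-Cre-ERT+; Bcorfl/y, and the BcorWT donors had Bcorfl/y without the Cre. The scl-Cre-ERT transgene directs a tamoxifen-activated Cre recombinase to haematopoietic stem cells, and the recombined allele lacks exons 9 and 10. Tamoxifen, 5 mg in total, was given at 3 to 6 months of age. By the series design, Ptprca mice received whole bone marrow of these donors. They carry the CD45.1 form of the leukocyte antigen. The study's methods give 500000 cells per recipient for bone marrow and 5.5 Gy of sub-lethal irradiation, which leaves host cells in the recipients. At 20 weeks donor-derived KL cells (CD45.2+ Lin- cKit+ Sca-1-), the progenitors of the granulocyte, monocyte, erythroid and megakaryocyte lineages, were sorted from the marrow. There were 2 BcorΔE9-10 and 2 BcorWT libraries. Nothing in the labels says whether the 2 libraries of a genotype came from separate recipients, so the p-values measure only the spread between these libraries.

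Mitosis genes are transcribed as a group late in the cell cycle, and their transcripts are scarce in resting cells, so that in a tissue their summed level follows how many cells are dividing. In most of these genes the promoter holds CCAAT boxes, which bind NF-Y, and a cell cycle genes homology region (CHR). The CHR is bound by the MuvB core, which represses the genes in resting cells as part of DREAM and activates them with B-Myb and FoxM1 in dividing cells. In bulk samples fewer dividing cells and less mitotic RNA in each cell cannot be told apart.

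Promoters were read from RefSeq (GRCm38.p6) as the 250 bases before a gene's start and the 50 bases from it, and 43 of the 50 mitosis genes matched an entry. *Aurkb*, *Ccna2*, *Cdc25c*, *Incenp*, *Kif20a*, *Smc4* and *Tpx2* had no entry. A CCAAT box was searched for as CCAAT, which reads ATTGG on the other strand. A CHR was searched for as TTTGAA, which reads TTCAAA on the other strand. A further form of the CHR, TTTAAA, reads alike on both strands. A CCAAT box was found in 33 of the 43 promoters (76.7%), against 41.1% of 27025 genes with a promoter entry. TTTGAA was found in 32 (74.4%), against 20.2%, and TTTAAA in 9 (20.9%), against 14.9%. Both a CCAAT box and a CHR form were found in 30 promoters (69.8%), against 12.2% of all genes with an entry and 9.02% of the 8396 of them in the count table. A CHR form lay within 50 bases of the start in 30 (69.8%), against 9.54%. These counts are a description of the letters in the window, not of bound sites.

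The 6 promoters that follow belong to the 3 mitosis genes that differed most in each direction between the 2 BcorWT libraries, *Ect2*, *Bub1* and *Hmmr*, which were lower in replicate 2, and *Cdca8*, *Cdk1* and *Bub1b*, which were higher. They are shown because both sets were measured in cells of the same genotype and differed in opposite directions. Each runs 5′ to 3′ along the gene's own strand, and the capitals mark the motifs. The window of *Cdca8* follows the RefSeq start and lies within the gene as annotated in GENCODE M21 (chr4:124918465-124939311, minus strand).
*Ect2* (chr3:27153829-27154128, minus strand): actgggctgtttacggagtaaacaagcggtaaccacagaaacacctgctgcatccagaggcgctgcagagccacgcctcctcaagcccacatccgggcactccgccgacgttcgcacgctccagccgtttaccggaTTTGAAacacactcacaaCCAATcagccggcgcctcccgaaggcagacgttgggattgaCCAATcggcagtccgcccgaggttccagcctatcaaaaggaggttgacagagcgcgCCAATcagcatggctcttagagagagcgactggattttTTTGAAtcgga
*Bub1* (chr2:127831810-127832109, minus strand): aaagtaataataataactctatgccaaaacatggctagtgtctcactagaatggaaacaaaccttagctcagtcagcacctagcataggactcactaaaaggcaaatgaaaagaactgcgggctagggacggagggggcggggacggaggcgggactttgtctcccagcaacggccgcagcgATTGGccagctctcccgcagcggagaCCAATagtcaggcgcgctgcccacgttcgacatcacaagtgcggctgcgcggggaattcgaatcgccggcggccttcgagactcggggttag
*Hmmr* (chr11:40733388-40733687, minus strand): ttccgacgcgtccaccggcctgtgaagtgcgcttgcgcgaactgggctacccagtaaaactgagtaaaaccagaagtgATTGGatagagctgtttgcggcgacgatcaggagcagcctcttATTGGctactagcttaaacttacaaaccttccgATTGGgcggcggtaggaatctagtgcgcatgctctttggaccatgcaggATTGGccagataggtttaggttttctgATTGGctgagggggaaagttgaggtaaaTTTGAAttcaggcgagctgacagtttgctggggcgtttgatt
*Cdca8* (chr4:124936868-124937167, minus strand): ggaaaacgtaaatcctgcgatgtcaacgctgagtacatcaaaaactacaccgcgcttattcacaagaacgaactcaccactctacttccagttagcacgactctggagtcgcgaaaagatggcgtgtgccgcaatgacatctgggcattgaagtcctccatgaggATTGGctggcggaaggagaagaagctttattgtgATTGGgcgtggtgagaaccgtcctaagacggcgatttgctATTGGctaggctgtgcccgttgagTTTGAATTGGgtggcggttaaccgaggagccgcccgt
*Cdk1* (chr10:69352863-69353162, minus strand): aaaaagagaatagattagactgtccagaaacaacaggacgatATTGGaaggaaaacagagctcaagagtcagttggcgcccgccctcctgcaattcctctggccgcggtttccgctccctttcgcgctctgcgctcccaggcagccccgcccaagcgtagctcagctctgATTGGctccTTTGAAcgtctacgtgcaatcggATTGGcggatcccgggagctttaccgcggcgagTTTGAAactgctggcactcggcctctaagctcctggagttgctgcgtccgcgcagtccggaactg
*Bub1b* (chr2:118597961-118598260, plus strand): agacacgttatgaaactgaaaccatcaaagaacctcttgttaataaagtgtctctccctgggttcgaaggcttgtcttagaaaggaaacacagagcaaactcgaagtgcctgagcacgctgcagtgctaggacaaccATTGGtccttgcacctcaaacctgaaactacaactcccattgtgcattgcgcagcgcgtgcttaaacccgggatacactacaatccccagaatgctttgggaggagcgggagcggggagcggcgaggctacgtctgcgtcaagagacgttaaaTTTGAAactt

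Every one of these promoters holds a CCAAT box, and all but that of *Bub1* hold TTTGAA. Positions are counted from the start at 1, with -1 the base before it, and are those of a motif's first base. In *Cdk1* TTTGAA begins at -71 and -15, each downstream of an ATTGG copy (-80 and -48). In *Hmmr* 5 ATTGG copies precede a TTTGAA at 9, and in *Cdca8* 3 precede a TTTGAA at 14, whose last base is shared with a further ATTGG at 19. In *Ect2* TTTGAA begins at -114 and 40, and in *Bub1b* at 41. The share of promoters with both motifs was 69.2% (18 of 26) among mitosis genes higher in BcorΔE9-10 and 70.6% (12 of 17) among those lower. No mitosis gene's direction passed edgeR's test, as described next, so these shares are a description only.

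The libraries held 5058140 and 6253100.5 counts (BcorΔE9-10 replicates 1 and 2) and 3825289.5 and 4992205 counts (BcorWT replicates 1 and 2). Levels are given in CPM, counts scaled to a common library total with factors from the trimmed mean of M-values (TMM), and the limit that a count of 0 allows, 3 counts, was 0.489 to 0.876 CPM. The libraries were uneven in *Gm42418*, which took 16.3%, 14.3%, 27.9% and 1.43% of the counts in that order. *Bcor* had 104, 113, 58 and 79 counts, which do not check the deletion, since the reads come from the 3′ end. All 5 genes that fit the sort (*Kit*, *Ptprc*, *Cd34*, *Fcgr3* and *Spi1*) were in the table, at 553.7 to 749.3 CPM summed. Fits were made with edgeR's quasi-likelihood test and Benjamini-Hochberg adjustment over all 12067 genes. A log2 fold change is that of BcorΔE9-10 against BcorWT.

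All 50 mitosis genes were detected in every library, with 23 to 5109 counts per gene and library, and none was lost to the filter on low counts. Together they took 0.604% and 0.647% of the counts in the BcorΔE9-10 libraries and 0.478% and 0.680% in the BcorWT libraries. Scaled by TMM, their summed level was 5643 and 6598 CPM against 5335 and 6387 CPM. The sums of the BcorWT libraries lay below and between those of the BcorΔE9-10 libraries, so the genotypes overlapped in the summed level of mitosis transcripts.

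No mitosis gene passed edgeR's test, with Benjamini-Hochberg adjusted p from 0.945 to 0.997, and 0 had an unadjusted p under 0.05. Among all genes 0.0166% passed the adjusted threshold (2 genes) and 4.42% had an unadjusted p under 0.05 (533 genes). Limma-voom also gave 0 mitosis genes at either threshold, against 4 of all genes adjusted and 515 unadjusted. DESeq2 gave 0 adjusted and 1 unadjusted, *Plk1*, against 43 and 506 of all genes. The log2 fold changes ran from -0.92 (*Plk1*) to 0.85 (*Bub1*), with standard errors (SE) of 0.30 to 0.54. Of the 50, 29 were higher and 21 lower in BcorΔE9-10, with a median of 0.18, and 22 had a value smaller than its SE. Over all genes the median was -0.03 and 47.7% were higher, against 58% of the mitosis genes. The 3 that lay beyond 2 SE were *Plk1*, *Pttg1* and *Ncapg*, and 38 lay within 1.5-fold in either direction.

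Both BcorΔE9-10 libraries lay above both BcorWT libraries for 16 mitosis genes (32%), against 16.8% of all genes. Both lay below for 5 (10%), against 17.1% of all genes, and these were *Plk1*, *Pttg1*, *Incenp*, *Cdc20* and *Cdc25c*. Mitosis genes were thus above the background share on the higher side and under it on the lower side. BcorΔE9-10 replicate 2 was the highest of the 4 libraries for 25 mitosis genes (50%, against 20.6% of all genes) and the lowest for 0. Without that library 27 of the 50 were higher and the median was 0.03.

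**Figure D1:**
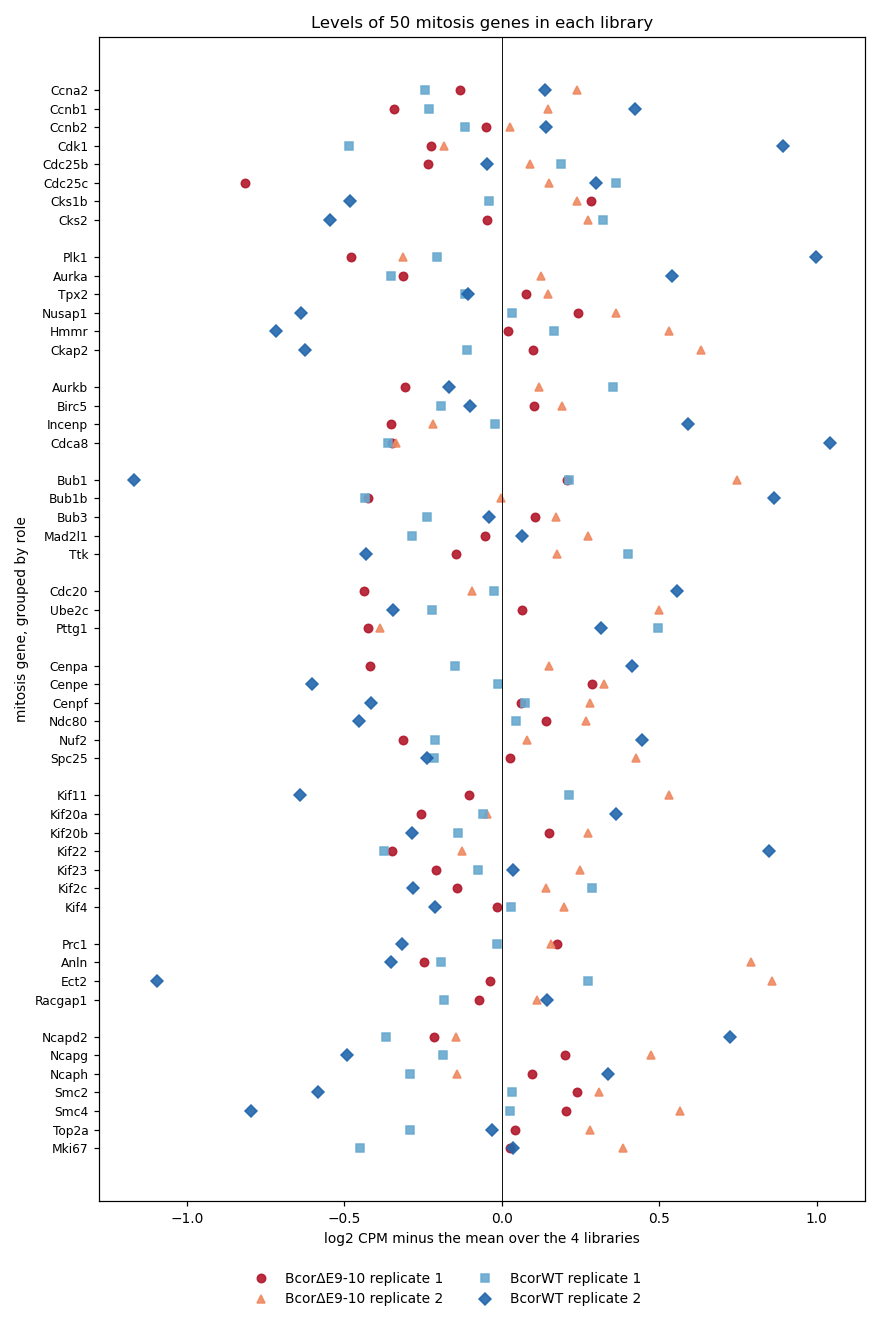
Levels of the 50 mitosis genes in each library, as log2 CPM minus the gene's mean over the 4 libraries, with genes in rows by role and a symbol for each library (BcorΔE9-10 replicates red and orange, BcorWT replicates light and dark blue). BcorWT replicate 2 is the highest of the 4 for 16 genes and the lowest for 22.

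In the account by role, values are given for BcorΔE9-10 replicates 1 and 2 against BcorWT replicates 1 and 2, and CPM compare a gene with itself across libraries. Each adjusted p is that of edgeR after Benjamini-Hochberg adjustment over all genes. The GC offset corrects each library for the base composition of transcripts, and its construction follows after the roles.

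Cyclins, *Cdk1* and its regulators start mitosis. Of these 8 genes 3 were higher and 5 lower in BcorΔE9-10, with a median log2 fold change of -0.08. It was 0.13 without BcorWT replicate 2 and -0.12 without BcorWT replicate 1. *Cdk1*, the kinase that drives entry into mitosis, had 1232 and 1435 counts against 650 and 2627, or 228 and 234 against 189.8 and 494 CPM. Both BcorΔE9-10 libraries and BcorWT replicate 1 lay together and BcorWT replicate 2 stood above all of them. Its log2 fold change was -0.57 (SE 0.46, adjusted p = 0.945), and 0.28 without BcorWT replicate 2. *Ccnb1*, the cyclin B1 that activates Cdk1, had 250 and 398 counts against 171 and 417, or 46.2 and 64.9 against 49.9 and 78.5 CPM. Its groups overlapped, with a log2 fold change of -0.21 (SE 0.36, adjusted p = 0.964) that was 0.15 without BcorWT replicate 2. *Cks1b*, a small Cdk-binding subunit, had 1170 and 1286 counts against 592 and 676, or 216 and 209.6 against 173 and 127 CPM. Both BcorΔE9-10 libraries were higher, and its log2 fold change of 0.51 (SE 0.32, adjusted p = 0.945) was the highest of this role. *Cdc25c*, a phosphatase that removes the inhibitory phosphates of Cdk1, had 23 and 51 counts against 33 and 49, or 4.25 and 8.31 against 9.64 and 9.22 CPM. Both BcorΔE9-10 libraries were lower, and its log2 fold change of -0.58 (SE 0.51, adjusted p = 0.945) was the lowest. Without BcorΔE9-10 replicate 1 it was -0.18 and without BcorΔE9-10 replicate 2 -1.14. The remaining 4, the cyclins *Ccna2* and *Ccnb2*, the phosphatase *Cdc25b* and the Cdk subunit *Cks2*, lay between -0.14 (*Cdc25b*) and 0.17 (*Cks2*) with overlapping groups.

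The kinases *Plk1* and *Aurka* and the spindle assembly factors gave 4 higher and 2 lower genes of 6, with a median of 0.37. That median was 0.21 with the GC offset, 0.25 without BcorWT replicate 2 and 0.58 without BcorWT replicate 1. *Plk1* (chr7:122159439-122169873, plus strand, GRCm38) encodes the Polo kinase needed for spindle poles, kinetochores and cytokinesis, and had 903 and 1148 counts against 692 and 2473, or 167 and 187 against 202 and 465 CPM. Both BcorΔE9-10 values were the lowest of the 4, and BcorWT replicate 1 lay much nearer to them than to BcorWT replicate 2. Its log2 fold change was -0.92 (SE 0.43, adjusted p = 0.945), the lowest of the 50, and -0.19 without BcorWT replicate 2. *Aurka*, the kinase of the centrosomes, had 449 and 690 counts against 277 and 798, or 83.0 and 112 against 80.9 and 150.2 CPM. Its groups overlapped, and the log2 fold change of -0.24 (SE 0.39, adjusted p = 0.962) was 0.27 without BcorWT replicate 2. The microtubule-binding proteins were on the other side. *Ckap2* had 126 and 207 counts against 69 and 75, or 23.3 and 33.7 against 20.2 and 14.1 CPM. Both BcorΔE9-10 libraries lay above the others, and its log2 fold change was 0.74 (SE 0.38, adjusted p = 0.945). Over the fits that left out 1 library it ran from 0.45 to 1.01, and it was 0.51 with the GC offset. *Nusap1* had 1000 and 1235 counts against 548 and 534, or 185 and 201 against 160.0 and 100.5 CPM. Again there was no overlap, with a log2 fold change of 0.57 (SE 0.35, adjusted p = 0.945). *Tpx2*, which activates Aurka on the spindle, differed by 0.22 and *Hmmr*, a spindle pole protein, by 0.52, which was 0.13 without BcorWT replicate 2.

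The chromosomal passenger complex corrects wrong attachments of chromosomes and directs cytokinesis. Of its 4 genes, 1 was higher and 3 were lower, with a median of -0.40. Their median was -0.12 without BcorWT replicate 2 and -0.40 without BcorWT replicate 1. *Aurkb*, its kinase, had 98 and 149 counts against 98 and 106, or 18.1 and 24.3 against 28.6 and 19.9 CPM. The groups overlapped, and the log2 fold change was -0.19 (SE 0.37, adjusted p = 0.967), with -0.43 to 0.09 when 1 library was left out. *Incenp*, its scaffold, had 1021 and 1269 counts against 813 and 1929, or 189 and 207 against 237 and 363 CPM. Both BcorΔE9-10 values were lower, with a log2 fold change of -0.60 (SE 0.35, adjusted p = 0.945) that was -0.26 without BcorWT replicate 2. *Cdca8*, which encodes Borealin, had 1046 and 1197 counts against 656 and 2696, or 193 and 195 against 192 and 507 CPM. In this gene 3 libraries were nearly equal and BcorWT replicate 2 alone was high, so that the log2 fold change of -0.85 (SE 0.47, adjusted p = 0.945) became 0.02 without it. *Birc5*, which encodes Survivin, had 1669 and 2014 counts against 860 and 1422, or 308 and 328 against 251 and 268 CPM. Its groups did not overlap, and the log2 fold change was 0.30 (SE 0.31, adjusted p = 0.946). These 4 values differed in sign, but none passed the adjusted threshold, and those of *Birc5* and *Aurkb* were smaller than their SE.

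The spindle checkpoint holds cells before anaphase until every chromosome is attached. Its 5 genes gave 3 higher and 2 lower, with a median of 0.22. That median was -0.12 with the GC offset, 0.17 without BcorWT replicate 1 and 0.29 without BcorWT replicate 2. *Bub1*, a checkpoint kinase, had 66 and 109 counts against 42 and 25, or 12.2 and 17.8 against 12.3 and 4.70 CPM. BcorWT replicate 2 alone was low, the groups overlapped, and the log2 fold change of 0.85 (SE 0.54, adjusted p = 0.945) had the largest SE of the 50 and was 0.29 without it. *Bub1b*, which encodes BubR1 and is related to *Bub1*, had 307 and 467 counts against 193 and 737, or 56.7 and 76.1 against 56.4 and 139 CPM. Here BcorWT replicate 2 alone was high, and the log2 fold change of -0.56 (SE 0.45, adjusted p = 0.945) was 0.24 without it. *Bub3* differed by 0.27, *Mad2l1* by 0.22 and *Ttk*, the Mps1 kinase, by -0.02. With the GC offset these 3 genes were at -0.01, -0.12 and -0.21.

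Anaphase is started by the anaphase-promoting complex, which marks securin and cyclin B for destruction. *Cdc20*, its activator in mitosis, had 448 and 644 counts against 378 and 877, or 82.8 and 105 against 110.4 and 165 CPM. It was lower in both BcorΔE9-10 libraries, and its log2 fold change was -0.55 (SE 0.35, adjusted p = 0.945), or -0.23 without BcorWT replicate 2. *Ube2c*, the ubiquitin-conjugating enzyme of the complex, had 559 and 856 counts against 290 and 413, or 103 and 139.5 against 84.7 and 77.7 CPM. It was the reverse, with both BcorΔE9-10 libraries higher and a log2 fold change of 0.58 (SE 0.32, adjusted p = 0.945). With 1 library left out at a time that value ran from 0.35 to 0.78. *Pttg1* (chr11:43420250-43426251, minus strand, GRCm38) encodes securin, the protein that holds back separase, and had 61 and 71 counts against 73 and 100, or 11.3 and 11.6 against 21.3 and 18.8 CPM. In each genotype its libraries were close together, and its log2 fold change of -0.81 (SE 0.37, adjusted p = 0.945) had the smallest unadjusted p of the 50. Over the fits that left out 1 library it ran from -0.90 to -0.72.

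The 6 centromere and kinetochore genes build the attachment site of the spindle, and 4 were higher and 2 lower, with a median of 0.36. It was 0.14 without BcorWT replicate 2 and 0.53 without BcorWT replicate 1. *Cenpe*, a kinesin of the kinetochore, had 674 and 785 counts against 347 and 357, or 125 and 128 against 101 and 67.2 CPM. The genotypes did not overlap, and the log2 fold change was 0.59 (SE 0.34, adjusted p = 0.945). *Cenpa*, the histone H3 variant of centromeres, had 450 and 758 counts against 344 and 788, or 83.2 and 124 against 100.5 and 148 CPM. The groups overlapped, and its log2 fold change of -0.27 (SE 0.36, adjusted p = 0.959) was the lowest of this role and 0.04 without BcorWT replicate 2. The 3 measured subunits of the Ndc80 complex, which binds microtubules, were split, with *Ndc80* at 0.39 and *Spc25* at 0.47 but *Nuf2* at -0.26. The value of *Nuf2* was smaller than its SE of 0.37. Without BcorWT replicate 2 the 3 subunits were at 0.16, 0.46 and 0.11. With the GC offset and every library they were at 0.20, 0.29 and -0.58. *Cenpf*, a protein of the outer kinetochore, differed by 0.33, or 0.10 without BcorWT replicate 2.

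Of 7 kinesin motors 4 were higher and 3 lower, with a median of 0.06. It was -0.02 with the GC offset and 0.29 without BcorWT replicate 1. *Kif20b*, a motor of cytokinesis, had 334 and 413 counts against 173 and 243, or 61.7 and 67.3 against 50.5 and 45.7 CPM. It was higher in both BcorΔE9-10 libraries, and its log2 fold change was 0.42 (SE 0.30, adjusted p = 0.945). With the GC offset that value was 0.12 and the groups overlapped. *Kif22*, which moves chromosome arms, had 241 and 319 counts against 150 and 544, or 44.5 and 52.0 against 43.8 and 102 CPM. BcorWT replicate 2 alone was high, and the log2 fold change of -0.60 (SE 0.43, adjusted p = 0.945) was 0.14 without it. *Kif11*, the motor that separates the spindle poles, differed by 0.40, or 0.03 without BcorWT replicate 2 and 0.05 without BcorΔE9-10 replicate 2. *Kif20a*, *Kif23*, *Kif2c* and *Kif4* lay between -0.32 and 0.19 with overlapping groups. The lowest of these, *Kif20a*, shares its reads with a neighbour, as described with the shared exons.

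In the cytokinesis role all 4 genes were higher with every library, *Racgap1* by far less than its SE. The median was 0.48, or 0.21 without BcorWT replicate 2 and 0.60 without BcorWT replicate 1. *Ect2*, the exchange factor that starts furrowing at the cleavage plane, had 89 and 188 counts against 70 and 42, or 16.4 and 30.6 against 20.4 and 7.90 CPM. BcorΔE9-10 replicate 2 was high and BcorWT replicate 2 low, the others lay between them, and the log2 fold change of 0.75 (SE 0.53, adjusted p = 0.945) was 0.21 without BcorWT replicate 2. *Racgap1*, which recruits Ect2 as part of the centralspindlin complex, had 333 and 429 counts against 195 and 380, or 61.5 and 69.9 against 56.9 and 71.5 CPM. Its log2 fold change was 0.03 (SE 0.31, adjusted p = 0.994), and over the fits that left out 1 library it ran from -0.13 to 0.21. *Anln*, the scaffold of the contractile ring, differed by 0.64 with overlapping groups, and by 0.03 without BcorΔE9-10 replicate 2. *Prc1*, which bundles the midzone microtubules, differed by 0.33 without overlap. Its value ran from 0.18 to 0.48 with 1 library left out at a time, and was 0.18 with the GC offset.

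Condensin, *Top2a* and *Mki67* act on chromosome structure, and 5 of these 7 were higher, with a median of 0.40. That median was 0.19 without BcorWT replicate 1 and 0.37 without BcorWT replicate 2. *Mki67*, the Ki-67 gene used as a marker of dividing cells, had 1735 and 2518 counts against 789 and 1715, or 321 and 410.5 against 230.4 and 323 CPM. BcorΔE9-10 replicate 1 and BcorWT replicate 2 were nearly equal, and the log2 fold change was 0.40 (SE 0.34, adjusted p = 0.945). *Top2a*, the topoisomerase that untangles sister DNA, had the largest counts of the 50, 3817 and 5109 counts against 1919 and 3563, or 705 and 833 against 560.4 and 670.5 CPM. Its groups did not overlap, and its log2 fold change was 0.32 (SE 0.33, adjusted p = 0.946). With the GC offset it was 0.06 and the groups overlapped. The condensin core subunits were higher as well. *Smc2* had 1400 and 1667 counts against 768 and 777, or 259 and 272 against 224 and 146 CPM, without overlap, and a log2 fold change of 0.52 (SE 0.34, adjusted p = 0.945). *Smc4* had 1808 and 2639 counts against 1011 and 888, or 334 and 430.2 against 295 and 167 CPM, without overlap, and a log2 fold change of 0.73 (SE 0.38, adjusted p = 0.945). The other measured subunits of condensin I were split. *Ncapg* had 209 and 286 counts against 101 and 127, or 38.6 and 46.6 against 29.5 and 23.9 CPM. No BcorWT value reached those of BcorΔE9-10, and its log2 fold change was 0.68 (SE 0.32, adjusted p = 0.945). With the GC offset that value was 0.39 (SE 0.27). *Ncapd2* had 676 and 804 counts against 385 and 1273, or 125 and 131 against 112 and 239.6 CPM. BcorWT replicate 2 alone was high, and its log2 fold change of -0.46 (SE 0.41, adjusted p = 0.945) was 0.19 without it. *Ncaph*, a further subunit, differed by -0.08.

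**Figure D2:**
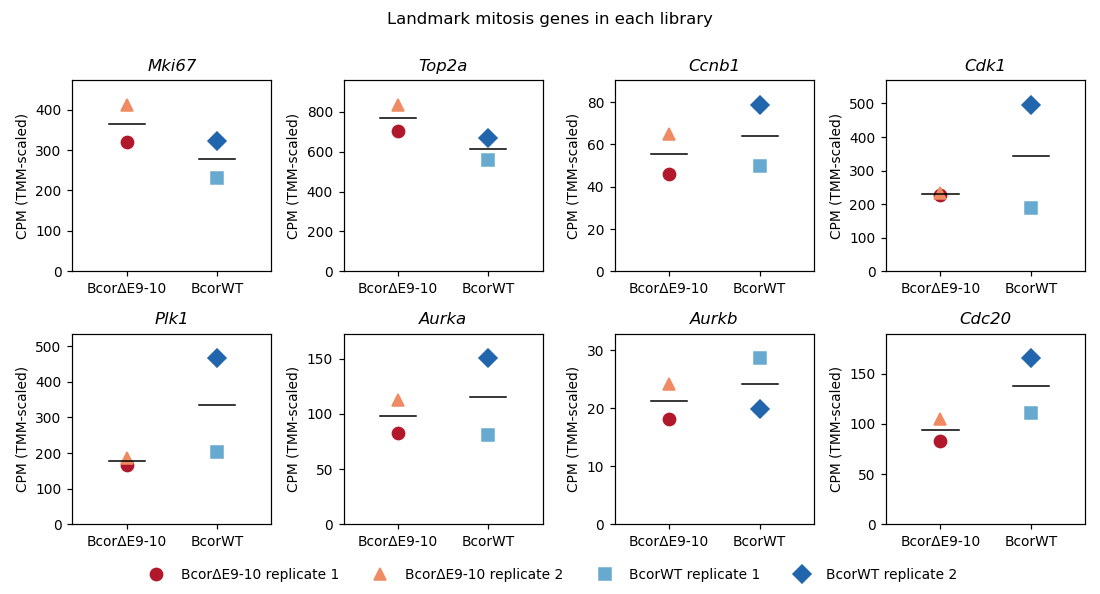
Levels of 8 landmark mitosis genes in CPM scaled by TMM (vertical axes from 0) in the 2 BcorΔE9-10 and 2 BcorWT libraries, with points for libraries and lines for group means. *Cdk1* and *Plk1* have 3 libraries at 167 to 234 CPM and BcorWT replicate 2 at 494 and 465 CPM, and for *Mki67*, *Ccnb1*, *Cdk1*, *Aurka* and *Aurkb* the groups overlap.

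As group means, *Mki67* was at 366 ± 63.5 CPM in BcorΔE9-10 and 277 ± 65.3 CPM in BcorWT (SD, n = 2). *Top2a* was at 769 ± 90.1 CPM in BcorΔE9-10 and 615 ± 77.8 CPM in BcorWT (SD, n = 2). *Plk1* was at 177 ± 14.3 CPM in BcorΔE9-10 and 334 ± 186 CPM in BcorWT (SD, n = 2) and *Cdk1* at 231 ± 4.40 CPM in BcorΔE9-10 and 342 ± 215 CPM in BcorWT (SD, n = 2). For the last 2 the SD of the BcorWT libraries was larger than the difference between the means.

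**Figure D3:**
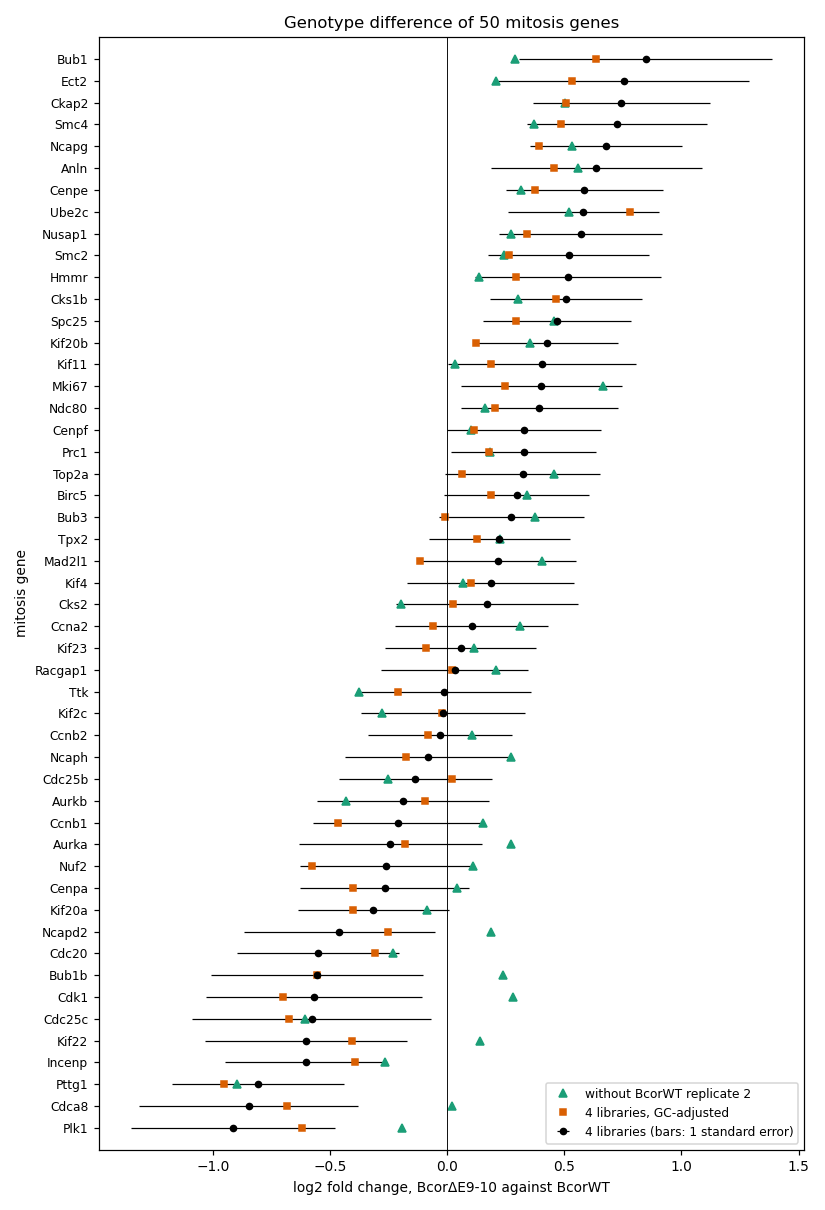
Log2 fold changes of BcorΔE9-10 against BcorWT for the 50 mitosis genes, ordered by value, from all 4 libraries (black, bars of 1 SE), with GC content as an offset (orange) and without BcorWT replicate 2 (green). Black points run from -0.92 to 0.85 and for 22 genes the bar reaches or crosses 0.

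The mitosis genes differed between the 2 BcorWT libraries, which share a genotype. The log2 CPM of replicate 2 against replicate 1 ran from -1.33 (*Ect2*) to 1.40 (*Cdca8*), and its median size was 0.51, against 0.27 between the BcorΔE9-10 replicates. Over all genes these sizes were somewhat larger, 0.57 and 0.31. For 41 of the 50 (82%) the BcorWT libraries differed more than the BcorΔE9-10 libraries, as they did for 67.6% of all genes. Replicate 2 was higher for 24 mitosis genes and lower for 26. *Cdca8*, *Cdk1*, *Bub1b*, *Kif22*, *Plk1* and *Ncapd2* were more than 2-fold higher in it, and *Ect2* and *Bub1* were more than 2-fold lower.

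When BcorWT replicate 1 was left out, so that BcorWT replicate 2 stood alone for its genotype and was assumed to vary like the other libraries, 596 genes (4.94%) and 2 of the 50 mitosis genes passed edgeR's adjusted threshold. The mitosis genes were *Plk1* (log2 fold change -1.40) and *Cdca8* (-1.39), both with an adjusted p of 0.0284, and 11 mitosis genes were higher and 8 lower at an unadjusted p under 0.05, as were 25% of all genes in either direction (3013 of 12063). When BcorWT replicate 2 was left out instead, the values for *Plk1* and *Cdca8* were -0.19 and 0.02. Of the 50, 39 were higher, with a median of 0.20, while 50.29% of all genes were higher, with a median of 0.0034. Several of the genes higher in BcorΔE9-10 then had smaller values as well, 0.37 for *Smc4*, 0.32 for *Cenpe*, 0.27 for *Nusap1*, 0.24 for *Smc2* and 0.30 for *Cks1b*, while *Mki67* (0.67) and *Top2a* (0.46) had larger ones. Without BcorWT replicate 1 these last genes were at 0.18 and 0.19. Over the fits that each left out 1 library, 19 mitosis genes took both signs. They were *Ccna2*, *Ccnb1*, *Ccnb2*, *Cdk1*, *Cdc25b*, *Cks2*, *Aurka*, *Aurkb*, *Cdca8*, *Bub1b*, *Ttk*, *Cenpa*, *Nuf2*, *Kif22*, *Kif23*, *Kif2c*, *Racgap1*, *Ncapd2* and *Ncaph*.

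The difference between the BcorWT libraries went with the GC content of the transcript, the percent of its bases that are G or C, taken from the longest protein-coding transcript in GENCODE M21. It ran from 39.4% (*Kif20b*) to 56.0% (*Plk1*) over the mitosis genes. The correlations that follow are across genes, which share the same 4 libraries and are not independent replicates. Spearman's rank correlation of BcorWT replicate 2 minus replicate 1 with GC content was 0.571 over the 50 mitosis genes and 0.440 over the 10223 genes with a GC value. Between the BcorΔE9-10 replicates it was -0.157 and -0.119. Genes rich in GC thus tended to be higher in BcorWT replicate 2, in the mitosis genes as in the table as a whole.

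The log2 fold change between the genotypes followed GC content too, with a rank correlation of -0.682 over the mitosis genes and -0.429 over all genes. The 25 mitosis genes under 46.23% GC had a median log2 fold change of 0.40 and 21 were higher in BcorΔE9-10, while the 25 above it had a median of -0.19 and 8 were higher. All genes divided at the same value had medians of 0.21 and -0.13. The genes that stood highest, *Bub1* (41.0% GC), *Ect2* (40.2%), *Ckap2* (42.7%), *Smc4* (40.2%) and *Ncapg* (39.8%), were poor in GC. Of those that stood lowest, *Plk1* (56.0%), *Cdca8* (52.9%), *Incenp* (54.5%) and *Kif22* (53.7%) were rich in it and *Pttg1* (46.0%) was not. Without BcorWT replicate 2 the rank correlation was -0.395 over the mitosis genes and -0.0401 over all genes, and the medians of the mitosis genes below and above 46.23% GC were 0.27 and 0.11.

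**Figure D4:**
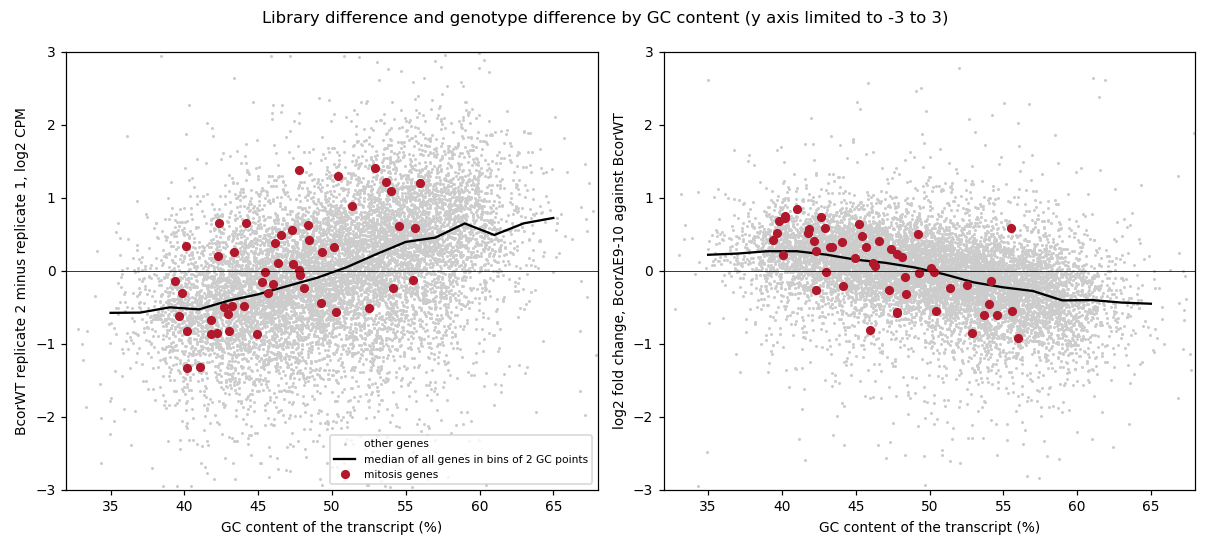
BcorWT replicate 2 minus replicate 1 in log2 CPM (left) and the log2 fold change of BcorΔE9-10 against BcorWT (right) by the GC content of the transcript in percent, with mitosis genes in red, other genes in grey and the median of all genes in bins of 2 percentage points as a line. The red points rise with GC content on the left (rank correlation 0.571, n = 50) and fall on the right (rank correlation -0.682, n = 50).

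With a library-wise GC curve as an offset in edgeR, a setting added after the data were examined, the median of the 50 mitosis genes was 0.02 and 26 were higher. The rank correlation of the log2 fold change with GC content was then -0.486 over the mitosis genes and -0.00729 over all genes. *Plk1* was at -0.62, *Cdca8* at -0.68, *Bub1* at 0.64 and *Ect2* at 0.53, all nearer to 0 than before. So were *Ncapg* (0.39), *Smc2* (0.26), *Smc4* (0.49), *Cenpe* (0.38) and *Nusap1* (0.34). *Nuf2* (-0.58), *Ccnb1* (-0.47), *Cdk1* (-0.70) and *Cenpa* (-0.40) were farther from 0. The 5 mitosis genes that changed sign were *Ccna2*, *Cdc25b*, *Bub3*, *Mad2l1* and *Kif23*. Both BcorΔE9-10 libraries lay above both BcorWT libraries for 12 mitosis genes (24%, against 16.3% of all genes) and below for 6 (12%, against 16.3%). In edgeR 402 of the 10223 genes had an unadjusted p under 0.05. Among the 50 mitosis genes these were *Pttg1* (-0.95) and *Ube2c* (0.78), a share close to that of all genes, with an adjusted p of 0.995 for both. For both genes the value was farther from 0 with the offset than without it. Neither passed the threshold over all genes.

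For some of the 50 the counts may hold reads of another gene. The last 600 bases of *Kif20a* lie within exons of *Cdc23* on the other strand, and their counts were nearly equal in every library (375, 492, 272 and 566 against 366, 491, 270 and 576), so a value for *Kif20a* alone cannot be given. The end of *Ncapg* is shared with *Lcorl* in the same way (209, 286, 101 and 127 counts against 149, 213, 73 and 112). *Ccna2*, *Cdc25c*, *Nusap1*, *Cdc20* and *Kif4* also share exon sequence with a counted gene on the opposite strand, and whether strand was used in counting is not given in the sources used here. The processed pseudogenes *Gm12891* and *Gm15452* match the end of *Cks2* at 98.3% and 100% identity, and the ends of *Cenpf* and *Kif11* match other genes at 95% or more. The 40 mitosis genes that share no exon and no such copy with another counted gene had a median log2 fold change of 0.14, and 22 were higher. Some of these 40 still overlap or resemble genes that are not in the table, as *Prc1* does with *Rccd1* and *Mki67* with the processed pseudogene *Gm44521* (98.6% identity).

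Around the mitosis genes, 5 further lists from the same programme were read from the same fit. In edgeR 0 genes of any list passed the adjusted threshold, and 2 (named where they occur) had an unadjusted p under 0.05. Over all genes 4.42% (533) had an unadjusted p under 0.05. Transcription factors of the mitotic programme, which switch these genes on or keep them silent, gave 10 higher and 7 lower of 17 in the table, with a median of 0.08, from *Mybl2* (-0.68), which encodes B-Myb, to *Tfdp1* (0.84), which pairs with E2F proteins. Their median was 0.32 without BcorWT replicate 1 and -0.05 without BcorWT replicate 2. The 17 genes of the anaphase-promoting complex and its regulators gave 5 higher and 12 lower, with a median of -0.27. That median was -0.09 without BcorWT replicate 2 and -0.41 without BcorWT replicate 1. Their values ran from *Fzr1* (-0.9998), the activator of the complex in late mitosis and G1, to *Fbxo5* (0.47), its inhibitor. The 27 further kinetochore genes gave 16 higher and 11 lower, with a median of 0.03 (-0.01 without BcorWT replicate 2), from *Pmf1* (-0.98) to *Cenpq* (1.20), and *Cenpq* alone had an unadjusted p under 0.05. The 46 further mitotic genes gave 25 higher and 21 lower, with a median of 0.08 (0.23 without BcorWT replicate 1 and 0.03 without BcorWT replicate 2), from *Pimreg* (-1.11, unadjusted p under 0.05) to *Shcbp1* (0.75). The 37 DNA replication genes, which mark S phase, gave 24 higher and 13 lower, with a median of 0.10, from *Mcm2* (-0.78), a subunit of the replicative helicase, to *Rpa3* (1.12), a subunit of the single-strand binding protein.

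Markers of the lineages that KL cells give rise to were read beside the mitosis genes. Over all genes 47.7% were higher in BcorΔE9-10. An unadjusted p under 0.05 in edgeR, in either direction, was found for 4.42% of all genes. Among the 13 erythroid markers that were counted, 12 were higher in BcorΔE9-10, at 263.5 and 218.6 CPM summed against 100.2 and 117.8 CPM, 6 of them with an unadjusted p under 0.05, and *Epor*, *Slc4a1* and *Alas2* were among those not in the table. All 8 eosinophil, basophil and mast cell markers were lower, at 260.4 and 207.8 CPM against 471.3 and 473.1 CPM, and *Epx*, *Mcpt8* and *Cpa3* had an unadjusted p under 0.05. The 13 granulocyte markers split into 6 higher and 7 lower, at 74080 and 163300 CPM against 105300 and 154100 CPM. Of 9 monocyte and dendritic markers 7 were lower, at 875.7 and 849 CPM against 1087 and 1877 CPM. The 4 megakaryocyte markers in the table were all lower, at 107.9 and 140.8 CPM against 109.5 and 265.7 CPM, and *Pf4* had an unadjusted p under 0.05. Their median log2 fold change was -0.70, or -0.18 without BcorWT replicate 2 and -1.06 without BcorWT replicate 1. The 5 stem and multipotent markers in the table were lower too, with a median of -0.09 that was 0.55 without BcorWT replicate 1 and -0.57 without BcorWT replicate 2, at 48.8 and 38.0 CPM against 63.1 and 34.4 CPM. None of these passed the adjusted threshold, and their part in the values of the mitosis genes was not tested. Of 6 T and NK cell markers only *Nkg7* was in the table, and of 7 B cell markers 4 were, at 14.5 to 37.5 CPM summed.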

How the data were processed

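Quant-seq (3′ mRNA) measured gene expression in KL cells of donor origin in 2 BcorΔE9-10 and 2 BcorWT libraries, with groups and replicate numbers from the sample labels. The authors trimmed reads with cutadapt (version 1.7 in the submitters' processing notes), aligned them with HISAT2 to mm10 and obtained gene counts with Subread, and the deposited table holds counts without normalization. For 2 libraries the deposited values had to be treated like expected counts, since *Gm4430* alone is not whole there, and they were rounded before testing. How these values arose is not given in the sources used here, nor is the level above which genes were kept.

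Counts were tested with edgeR 4.0.16 in R 4.3.3 (TMM, filterByExpr, quasi-likelihood F test, prior count 0.125 for log2 fold changes, Benjamini-Hochberg adjustment over 12067 genes). The study names limma, which was run as an alternative (limma-voom, limma 3.58.1), as was DESeq2 1.42.0. SE was obtained from a log2 fold change and the root of its F value, and log2 CPM used a prior count of 2. Transcript GC content, positions and exon overlaps came from GENCODE M21 (GRCm38), copies from blastn 2.17.0 (at least 95% identity over 100 bases of the last 600), promoters from RefSeq, and GC offsets from a lowess curve per library (span 0.3) over the 10223 genes with a value. Tables and figures used Python 3.11.15, pandas 2.3.3 and matplotlib 3.10.9.

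The mitosis genes, roles and lists were chosen with earlier results of these data known. Full values are printed for the highest and lowest gene of each role, the genes whose groups did not overlap at an absolute log2 fold change of at least 0.5, any with an unadjusted p under 0.05, and 8 landmark genes. The other mitosis genes are given by value or range. Of the further lists the highest and lowest gene are named.

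Alternatives comprised limma-voom, DESeq2, size factors of DESeq2 within edgeR, a fit blocked on replicate number, a fit to genes that reach 10 counts in all libraries, no filter, a fit without *Gm42418*, a prior count of 2 and fits that each left out a library. GC offsets and the 40 mitosis genes that share no exon or copy with another counted gene were added after the data were examined. Intervals were not computed for shares of counts, and the limit of 3 counts covers counting error only.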

Additional observations from a re-analysis of the deposited data

How the results depend on the processing

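Over the other tools, scalings and filters, the replicate block and the libraries left out, the median log2 fold change of the 50 mitosis genes stayed above 0, and 27 to 39 of them were higher in BcorΔE9-10, against 29 with all libraries. With 1 library left out at a time the median ran from 0.0325 to 0.283, the mitosis genes passing edgeR's Benjamini-Hochberg adjusted threshold numbered 0 to 2, those at an unadjusted p under 0.05 numbered 0 to 11 higher and 0 to 8 lower, and over all genes 6 to 596 passed the adjusted threshold and 243 to 3013 had an unadjusted p under 0.05. The cause of these changes was not tested beyond the GC values given. The 2 adjusted, 11 higher and 8 lower calls came without BcorWT replicate 1, where BcorWT replicate 2 stands alone and 25% of all genes had an unadjusted p under 0.05. Of all genes, 2 passed with every library, 5 with at least 10 counts in every library, 4 in limma-voom and 43 in DESeq2. DESeq2 gave 1 mitosis gene lower at an unadjusted p under 0.05 (*Plk1*), a threshold that 506 of all genes passed in either direction. With the replicate number as a replicate block 14 genes and 0 mitosis genes passed, with a median of 0.20, and 30 were higher. The main fit was planned without a replicate block. Deviations of same-numbered libraries had a correlation of -0.094, which with 2 libraries per genotype cannot exclude pairs or a shared batch. With GC offsets, added after the data were examined, 0 of all genes passed (402 at an unadjusted p under 0.05 for the transcript and 439 for its last 300 bases). Over the same 10223 genes without an offset 0 passed too (459). With an offset 1 mitosis gene was higher and 1 lower at an unadjusted p under 0.05, and the median was 0.02 with the transcript's GC and 0.06 with that of its last 300 bases. With 2 libraries per genotype the precision was limited, with SE of 0.30 to 0.54 for these genes.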
